A study of Mus musculus with 15 samples.

Results

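The MYC, MAX and MXD network is described here through 9 genes, Myc, Mycn, Mycl, Max, Mxd1, Mxd3, Mxd4, Mxi1 and Mnt, in sorted mouse basal cell carcinoma cells with and without vismodegib. The genes were taken by name, with no measured value in the rule, but earlier results of these data were known when they were chosen. All 9 were found among the 36528 genes listed in the deposited files, and all 9 passed the filter on low counts that left 18751 genes for testing. PolyA RNA was sequenced from 15 libraries: 4 from untreated controls, 8 after 6 days and 3 after 14 days of vismodegib, an inhibitor of the Hedgehog signal transducer SMO. Every group carried the same alleles, namely K14Cre-ER, Ptch1fl/fl, p53fl/fl and Lgr5GFP: a tamoxifen-inducible Cre driven in basal keratinocytes, conditional alleles of the Hedgehog receptor Ptch1 and of p53, and a GFP reporter at Lgr5. The controls therefore also lack Ptch1 and p53 in the cells where Cre acted. The labels give neither the age of the mice, nor the sort gate, nor whether animals were pooled, so p-values measure the spread between libraries.

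MYC, MYCN and MYCL are related transcription factors that bind DNA only as partners of MAX, at E-box sites, and raise transcription of genes for ribosome production, nucleotide and amino acid metabolism and cell cycle entry. MXD1, MXD3, MXD4, MXI1 (also known as MXD2) and MNT compete for the same partner and recruit SIN3 co-repressors and histone deacetylases to the same sites. In skin, MYC drives basal cells into the proliferating and then the differentiating compartment, MXD1 is a gene of differentiating keratinocytes, MXD3 is a gene of dividing cells, and MYCN is a target of Hedgehog signalling in several tissues.

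In GRCm38 coordinates of the RefSeq gene table, the activator genes are Myc at chr15:61985341-61990361 (plus strand), Mycn at chr12:12936093-12941836 (minus) and Mycl at chr4:122995588-123002490 (plus). The shared partner Max is at chr12:76937269-76962323 (minus). The repressor genes are Mxd1 at chr6:86647044-86669234 (minus), Mxd3 at chr13:55325170-55329900 (minus), Mxd4 at chr5:34176580-34187710 (minus), Mxi1 at chr19:53310128-53373293 (plus) and Mnt at chr11:74830806-74845725 (plus). Values are deposited per gene, not per transcript. In the GENCODE annotation Mxd3, Mxd4 and Mxi1 overlap genes on the opposite strand, and Max and Mxd1 overlap gene models on the same strand, so reads there may not be told apart.

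The promoter windows of the network, from 250 bases before to 50 bases after each transcription start in RefSeq GRCm38.p6, were searched on both strands for letters bound by the network and by its known regulators. The table held windows for 8 of the 9 genes, 10 windows in all, and Myc was not matched. The E-box CACGTG was found in 7.15% of all 32851 promoter windows and in the windows of Max, Mxd4 and Mnt of the network, and these 3 matches are printed for that reason. Capitals mark the E-box, and each stretch is written 5′ to 3′ on the strand of its gene. The Mxd4 stretch is chr5:34187912-34187941 on the minus strand, the Mnt stretch is chr11:74830789-74830818 on the plus strand and the Max stretch is chr12:76962234-76962263 on the minus strand.
Mxd4: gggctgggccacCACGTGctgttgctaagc
Mnt: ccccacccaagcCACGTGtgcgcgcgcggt
Max: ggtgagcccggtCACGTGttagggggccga

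Mycn was the only network gene in the table with matches to E2F-type letters, the kind bound by E2F cell cycle factors. TTTGGCGC occurred in 0.514% and TTTCGCGC in 0.323% of all windows, and the Mycn window held both, with overlapping matches. The stretch is chr12:12941967-12942046 on the minus strand, and capitals mark the matched letters. The GLI site GACCACCCA, found in 0.253% of windows, was in none of the 10 network windows. These matches describe letters only; binding was not measured.
Mycn: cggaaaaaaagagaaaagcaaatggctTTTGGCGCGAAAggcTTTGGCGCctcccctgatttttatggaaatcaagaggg

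Total counts ran from 27336935 to 256569828 per library. The sample identifiers fall into 3 ranges, called A, B and C here, which the labels do not describe as batches. Range A holds 3 controls and 5 libraries of the 6-day group, with totals from 27336935 to 38657170. Range B holds 1 control and 3 libraries of the 6-day group, with totals from 93183564 to 256569828, and range C holds the 3 libraries of 14 days alone, so range C and 14 days cannot be told apart. Basal keratinocyte markers were high in every library, with summed levels of 13330 to 22010 CPM (counts scaled to library size) in controls, 23880 to 38560 at 6 days and 28140 to 40020 at 14 days. Summed myeloid markers were 4.04 to 14.3 CPM in controls, 1.22 to 9.36 at 6 days and 22.7 to 34.4 at 14 days. T cell, fibroblast and endothelial marker sums did not exceed 18.2 CPM in any library, and melanocyte marker sums ran from 43.4 to 881.3 CPM. In RNA from sorted populations, fewer cells of a type and less RNA per cell cannot be told apart.

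All 9 genes were expressed in every library. Levels between genes are compared as deposited RPKM, which divides by gene length. In controls Mycn had the highest median, 39.3 RPKM. It was followed by Mxd4 at 21.7, Max at 14.1, Myc at 12.5, Mxi1 at 12.4, Mycl at 11.6, Mxd1 at 6.59, Mxd3 at 5.44 and Mnt at 1.68 RPKM. In this order the ranges of all 8 neighbouring pairs overlapped, with the range of each gene over the controls taken by itself. Library by library, Mxd4 was above Max in each control, and no other neighbouring pair kept its order in each control. At 6 days Myc led with a median of 24.9 RPKM, before Mxd4 at 23.8 and Mycn at 19.5, while Mnt at 2.27 and Mxd3 at 1.70 RPKM were lowest, and again all 8 neighbouring pairs overlapped. At 14 days Myc led at 34.9 RPKM, followed by Mxd4 at 20.5, Mycl at 18.5 and Mycn at 17.6, and Mnt was lowest at 1.42 RPKM. Here 4 of 8 neighbouring pairs overlapped: Myc lay above Mxd4, Mxi1 above Max, Max above Mxd1 and Mxd3 above Mnt in all 3 libraries. The place of Mxd4 in these orders rests on the gene length behind the deposited RPKM, which for Mxd4 was 0.481 times that of Max, while the longest annotated protein-coding transcript of Mxd4 has 3872 bases against 1942 for Max. With lengths of the longest annotated transcripts, and Max held at its deposited level, Mxd4 had medians of 5.23 RPKM in controls, 5.73 at 6 days and 4.93 at 14 days. It then ranked 8th, 7th and 8th of the 9 genes, while Mycn in controls and Myc at 6 and 14 days still ranked highest. Mxi1 then ranked second in each group, with medians of 14.8, 17.9 and 18.6 RPKM.

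Which MYC gene was most abundant differed from library to library. As a share of the RPKM summed over Myc, Mycn and Mycl, Myc made up 4.41 to 41.6% in the controls, with a median of 21.5%. At 6 days its share ran from 36.6 to 81.0%, with a median of 55.7%, and at 14 days it was 42.1, 50.1 and 51.0%. Myc was above Mycn in 1 of 4 controls, in 5 of 8 libraries at 6 days and in 3 of 3 at 14 days. Control replicate 2 was the most lopsided, with 92.1% of the sum in Mycn. The sum itself covered similar ranges, 54.6 to 105.8 RPKM in controls, 34.4 to 110.5 at 6 days and 49.2 to 102.3 at 14 days.

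**Figure D1:**
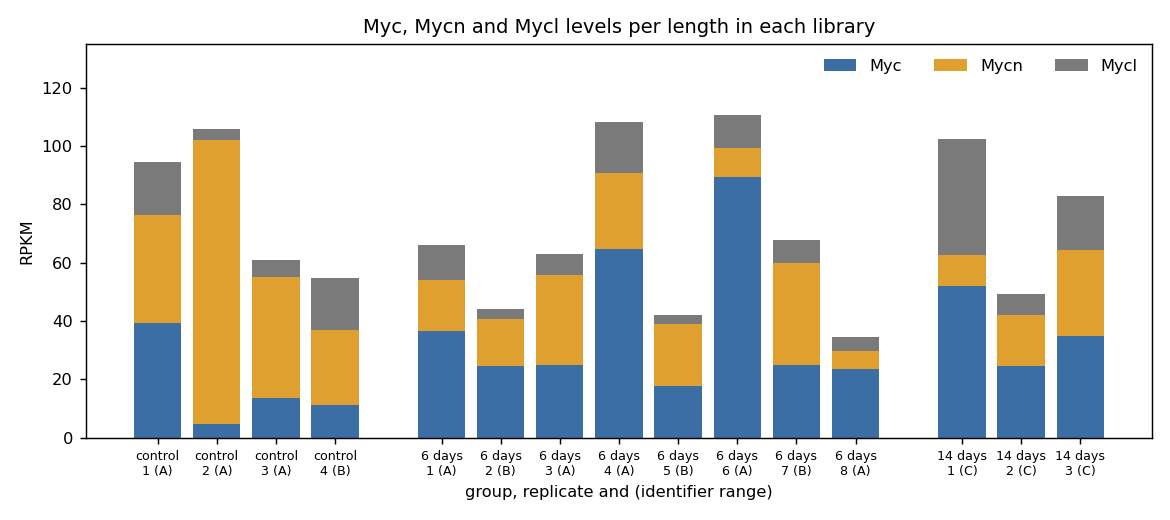
Deposited RPKM of Myc (blue), Mycn (orange) and Mycl (grey) stacked for each of the 15 libraries, with the identifier range in brackets under each bar. Mycn is the tallest segment in 3 of 4 controls, and Myc exceeds Mycn in 5 of 8 libraries at 6 days and in 3 of 3 at 14 days.

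The 6-day comparison asks what short Hedgehog inhibition does to the network. The 2 most abundant activators had estimates of opposite sign, higher for Myc and lower for Mycn, and the repressor gene Mxd3 had the lowest estimate of the 9. None of the 3 passed the test, and Mxd1 and Mxd4 sat near no change. No member was called by edgeR's quasi-likelihood test at a Benjamini-Hochberg adjusted p under 0.05, where 1.26% of all tested genes were called. At an unadjusted p under 0.05 the members were Myc, Mycn and Mxd3, 3 of 9, against 12.7% of all genes. DESeq2 called 0 members, and limma-voom with sample weights called 2, Mxd3 and Mycn, where it called 4.41% of all genes. The share of all genes called by DESeq2 is not given here for any comparison, so its count has no background beside it. No member had groups that did not overlap, which 2.69% of genes had. The median log2 fold change of the members was 0.07, beside 0.03 over all tested genes.

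Myc stood at 110.0, 13.4, 38.4 and 31.7 CPM in control replicates 1 to 4. At 6 days its lowest, median and highest levels were 51.7, 72.3 and 259.7 CPM. All 8 treated libraries were above 3 of the controls, but only 2 were above control replicate 1, so the groups overlapped. The mean went from 48.4 ± 42.5 (SD, n = 4) to 110.8 ± 73.3 CPM (SD, n = 8), a log2 fold change of 1.20 (SE 0.54, 95% interval 0.04 to 2.35, edgeR adjusted p = 0.371). Range A alone gave an estimate of 1.34 and range B alone 1.04. Without control replicate 1 it was 1.96 (edgeR adjusted p = 0.102).

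Mycn stood at 111.8, 302.1, 127.4 and 78.0 CPM in control replicates 1 to 4. At 6 days it ran from 20.4 to 111.8 CPM with a median of 61.5. Of the 8 treated libraries 5 were below every control, and the highest treated library reached the level of control replicate 1. The mean went from 154.8 ± 100.3 CPM (SD, n = 4) to 64.1 ± 31.3 (SD, n = 8), a log2 fold change of -1.27 (SE 0.43, 95% interval -2.18 to -0.36, edgeR adjusted p = 0.187). Within range A the estimate was -1.68 and within range B, which has a single control, it was -0.03. Without control replicate 2, the library with the highest Mycn, it was -0.75 (edgeR adjusted p = 0.595). limma-voom with sample weights, which gives less weight to libraries that stand apart, put it at -1.66 with an adjusted p of 0.0483.

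Mycl, the third activator, had control levels of 83.6, 17.3, 26.2 and 80.9 CPM, and 13.6, 36.1 and 80.9 CPM as its lowest, median and highest at 6 days. The groups covered almost the same span, and the log2 fold change was -0.41 (95% interval -1.58 to 0.76, edgeR adjusted p = 0.892). Its estimates had opposite signs in the ranges, 0.22 in range A and -1.87 in range B. Max, the shared partner, had means of 50.5 and 57.9 CPM and a log2 fold change of 0.20 (95% interval -0.53 to 0.93, edgeR adjusted p = 0.927).

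Among the repressor genes, Mxd3 stood at 6.61, 18.7, 32.4 and 4.37 CPM in control replicates 1 to 4. At 6 days its lowest, median and highest levels were 0.593, 4.01 and 8.72 CPM, the lowest being 20 reads in 6-day replicate 3. Of the 8 treated libraries 5 were below every control. The mean was 15.5 ± 12.9 CPM (SD, n = 4) in controls and 4.54 ± 3.05 (SD, n = 8) at 6 days. The log2 fold change was -1.77 (SE 0.62, 95% interval -3.09 to -0.44, edgeR adjusted p = 0.208). Range A alone gave -2.63. Range B alone gave 0.64, its control at 4.37 CPM lying between treated libraries at 3.75, 8.04 and 8.72 CPM. Without control replicate 3 the estimate from all ranges was -1.16. limma-voom with sample weights put it at -2.54 with an adjusted p of 0.0433. Mxd3 shares 105 bases with Prelid1 on the opposite strand, and whether counting used strand is not given in the sources used here.

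Of the other 4 repressor genes, 3 had intervals that exclude a 2-fold change at 6 days. Mxd1 had means of 57.8 and 58.1 CPM, and its 95% interval of -0.35 to 0.37 on the log2 scale excludes a change of 2-fold in either direction. The same holds for Mxd4, with means of 37.0 and 38.9 CPM and an interval of -0.47 to 0.61, and for Mxi1, with means of 120.0 CPM in controls and 144.0 at 6 days and an interval of -0.18 to 0.71. Mxi1 was 0.59 higher on the log2 scale at 6 days within range A, and its estimate within range B was -0.50. Mnt had means of 29.6 and 42.7 CPM and a wide interval of -1.05 to 2.11 around a log2 fold change of 0.53. Range A alone gave 0.30 and range B alone 0.10. Without control replicate 4, the single control of range B, the Mnt estimate was 1.84 (edgeR adjusted p = 0.212). That fit has range B libraries in the treated group only, so its estimate includes the difference between ranges.

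**Figure D2:**
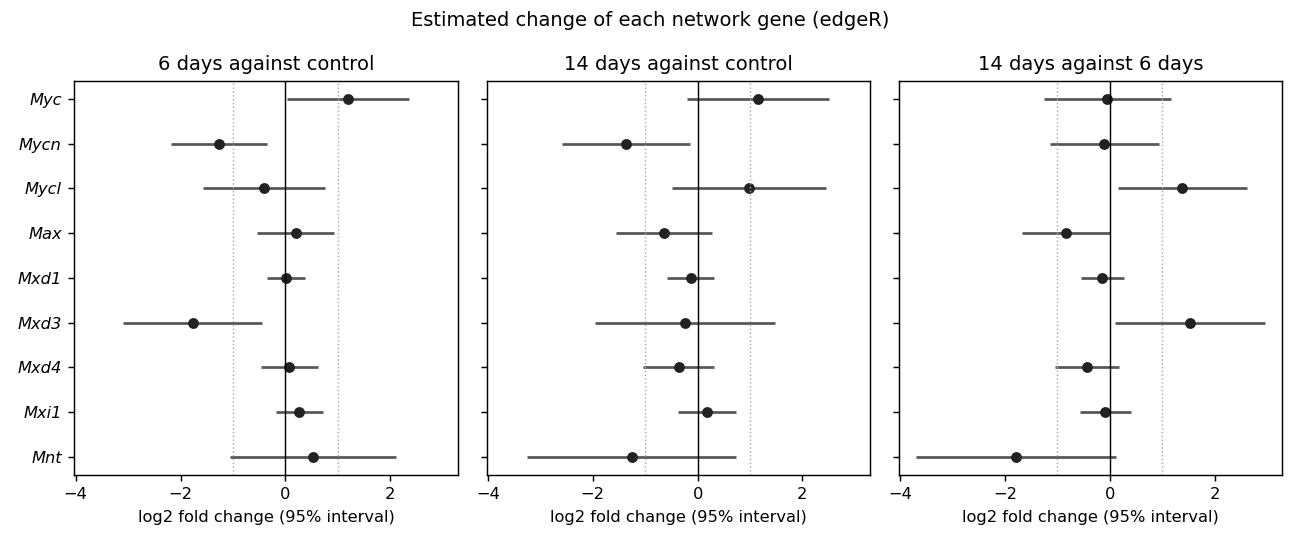
Log2 fold change of each of the 9 genes (point) with its 95% interval (line) from the edgeR fit of 15 libraries, in the 3 comparisons of treatment groups. Dotted lines mark a 2-fold change. The intervals of Myc, Mycn and Mxd3 lie on one side of 0 at 6 days, while none of the 9 genes has an adjusted p under 0.05.

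The 14-day comparison shares its controls with the 6-day one, so the pair of results is not independent. Mycn again had a negative and Myc a positive estimate, Mycl also had a positive estimate, and none of these passed the test. No member was called by edgeR, where 6.60% of all genes were called, and Mycn alone had an unadjusted p under 0.05, against 23.3% of all genes. DESeq2 called 0 members and limma-voom with sample weights called 1, Myc, where it called 22.4% of genes. No member had separated groups, which 23.4% of genes had. The members' median log2 fold change was -0.23, beside -0.02 over all genes. Myeloid marker sums were higher at 14 days, as given above, and their part in these values was not tested.

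Mycn stood at 32.3, 55.3 and 91.7 CPM in the 3 libraries of 14 days, the first pair below every control and the third above control replicate 4. The log2 fold change was -1.37 (SE 0.57, 95% interval -2.60 to -0.15, edgeR adjusted p = 0.163), and -0.82 without control replicate 2. Myc stood at 149.6, 71.7 and 100.5 CPM, all 3 above control replicates 2, 3 and 4 and 1 of them above control replicate 1. Its log2 fold change was 1.15 (SE 0.64, 95% interval -0.21 to 2.50, edgeR adjusted p = 0.296), and 1.95 without control replicate 1 (edgeR adjusted p = 0.0608). limma-voom with sample weights put it at 1.66 with an adjusted p of 0.0306.

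Mycl stood at 187.0, 33.2 and 87.4 CPM at 14 days, so 2 of 3 libraries were above every control and the groups overlapped. Its log2 fold change was 0.98 (95% interval -0.49 to 2.45, edgeR adjusted p = 0.422), and 0.22 without 14-day replicate 1. Mxd3 stood at 20.9, 6.74 and 11.97 CPM, inside the span of the controls, with a log2 fold change of -0.23 (95% interval -1.95 to 1.49, edgeR adjusted p = 0.898). Mxd1 (95% interval -0.58 to 0.32) and Mxi1 (-0.37 to 0.73) had intervals that exclude a 2-fold change. Max, Mxd4 and Mnt had estimates of -0.64, -0.36 and -1.26, none called. Under the alternatives run, the estimate ran from -0.83 to -0.065 for Max and from -0.45 to -0.052 for Mxd4. Both genes stood higher in range B, which holds a control and no 14-day library, than in every other library. For Mnt the estimate rested on range B: it was 0.01 with range B as a covariate and 0.05 without control replicate 4.

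Between 6 and 14 days, Mycl and Mxd3 had higher mean levels at 14 days and the other 7 members lower ones, and none passed the test. edgeR called no member, where 3.89% of all genes were called. Mycl and Mxd3 had an unadjusted p under 0.05, 2 of 9, as did 23.1% of all genes. DESeq2 called 0 members. limma-voom with sample weights called the same pair, where it called 25.0% of genes, and no member had separated groups, which 11.7% had. Mxd3 went from a mean of 4.54 to 13.2 CPM, a log2 fold change of 1.53 (SE 0.67, 95% interval 0.10 to 2.96, edgeR adjusted p = 0.187). The limma-voom estimate for Mxd3 was 2.06 with an adjusted p of 0.0164. Mycl went from 39.3 to 102.5 CPM, a log2 fold change of 1.39 (SE 0.58, 95% interval 0.15 to 2.62, edgeR adjusted p = 0.171), with 1.13 and an adjusted p of 0.0496 by limma-voom. Without 14-day replicate 1, the library highest in both genes, the edgeR estimates were 1.05 for Mxd3 and 0.63 for Mycl. Myc and Mycn had estimates of -0.05 (95% interval -1.26 to 1.16) and -0.10 (-1.15 to 0.95). Mnt had -1.79 (95% interval -3.69 to 0.12), and -0.24 with range B as a covariate.

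**Figure D3:**
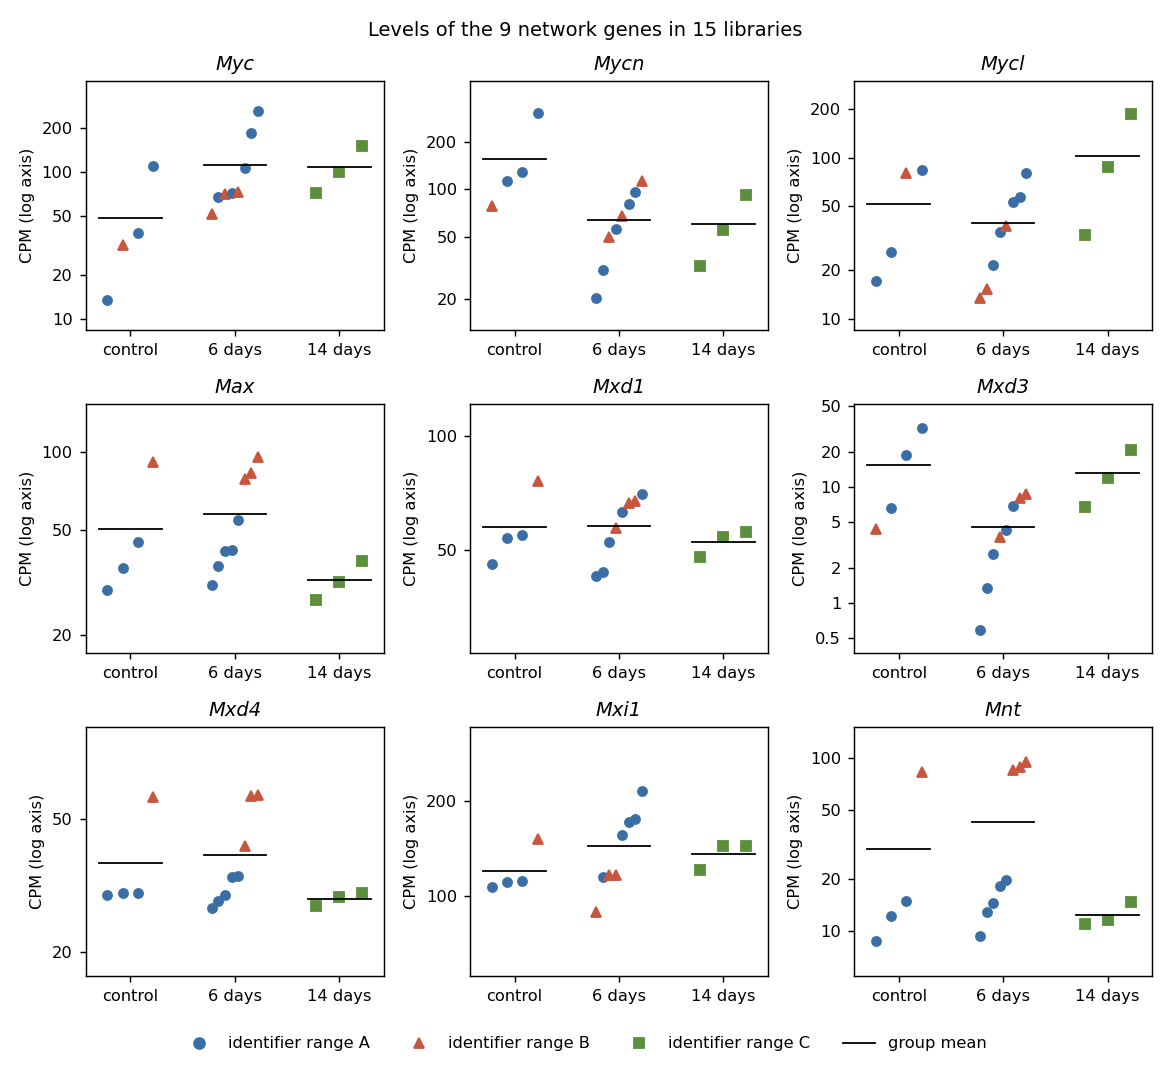
CPM on a log axis for each of the 9 genes in the 15 libraries, by treatment, with identifier range as colour and shape and the group mean as a line. Range B libraries (red triangles) stand above every other library for Max, Mxd4 and Mnt. Mxd3 has its lowest level, 0.593 CPM, in a range A library of 6 days.

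For Max, Mxd4 and Mnt, identifier range separated the libraries and treatment did not. Mnt, a broadly expressed repressor, stood at 82.7 CPM in the range B control and at 94.4, 87.9 and 85.2 CPM in the range B libraries of 6 days. In the 8 range A libraries Mnt ran from 8.75 to 19.6 CPM, and in the 3 libraries of 14 days it was 11.6, 14.6 and 10.95 CPM. Max ran from 78.5 to 95.1 CPM in range B and from 29.7 to 54.97 in range A. Mxd4 ran from 41.5 to 58.7 CPM in range B and from 27.1 to 33.8 in range A. In each of the 3 genes all 4 range B libraries were above all 11 others, a pattern that 12.9% of tested genes shared.

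With treatment as a term in an edgeR fit of the 12 range A and B libraries, 3 of 9 members were called between ranges, all higher in B. In that fit 39.1% of 20350 genes were called, 20.2% of genes being higher in B, so a count of 3 among 9 is near the background. The log2 difference was 2.64 for Mnt (SE 0.18, 6.25-fold, adjusted p = 1.53e-07), at the 95.5th percentile of all genes. It was 1.12 for Max (SE 0.15, 2.18-fold, adjusted p = 7.25e-05), at the 82.0th percentile. For Mxd4 it was 0.84 (SE 0.12, 1.79-fold, adjusted p = 0.000122), at the 76.7th percentile. The other 6 members were not called, with Myc lowest at -0.99 (95% interval -2.03 to 0.05, edgeR adjusted p = 0.123). Within the 6-day libraries alone the 3 genes remained called and Mxi1 was added, lower in range B by a log2 difference of -0.66 (edgeR adjusted p = 0.0309), where 35.2% of genes were called. Whether the 6-day effect itself differed between ranges was tested by an interaction term, which called no member and 0.059% of genes. The largest interaction estimates were 3.25 for Mxd3 (adjusted p = 0.463), -2.10 for Mycl (adjusted p = 0.483) and 1.63 for Mycn (adjusted p = 0.591), all from edgeR. At an unadjusted p under 0.05 the interaction fit had Mxi1, Mxd3 and Mycl, 3 of 9, against 10.3% of all 20350 genes. Depth also differed between the ranges, and its part in the difference was not tested.

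**Figure D4:**
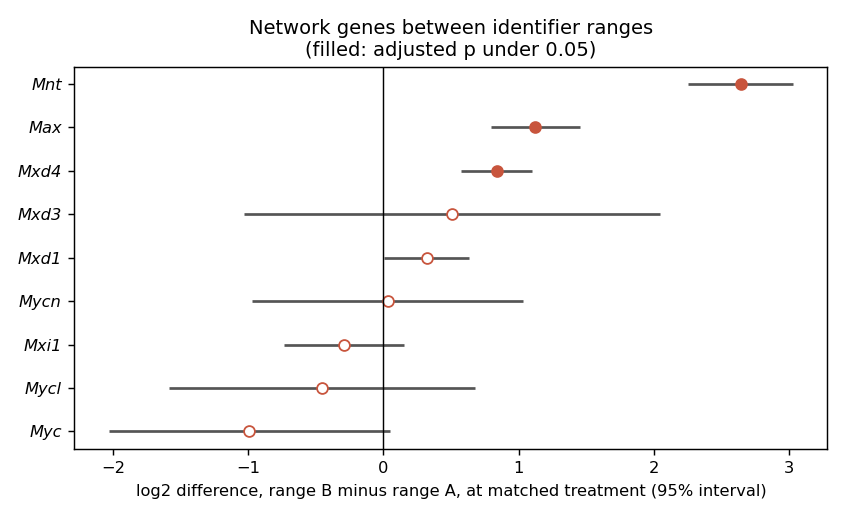
Log2 difference between range B and range A at matched treatment for the 9 genes (point) with its 95% interval (line), from an edgeR fit of 12 libraries. Filled points, with an adjusted p under 0.05, are Mnt at 2.64, Max at 1.12 and Mxd4 at 0.84.

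Relations among the members were computed over the 8 libraries of range A and over the 8 libraries of 6 days, as correlations of log2(CPM + 0.1). With 3 relations of a member to a list mean, this made 78 relations, and p-values come from exact two-sided permutation tests adjusted over all 78. Mxd3 followed the mean of 12 proliferation genes, among them Top2a and Mcm5. Over the 8 libraries of 6 days Pearson's r was 0.95 (exact permutation p = 0.000372, adjusted p = 0.029). Spearman's rho was 0.98 (exact permutation p = 0.000397, adjusted p = 0.031). Without the 2 libraries farthest from the median of Mxd3, r was 0.94 over 6 libraries. At 6 days range A holds 5 and range B 3 libraries, too few for a value within each. Among them Mxd3 had a mean of 6.8 CPM in range B and 3.2 in range A, a difference not called. The proliferation mean, in log2(CPM + 0.1), ran from 3.80 to 4.90 in range B and from 1.84 to 4.23 in range A. The 6-day values may therefore include a difference between ranges. Over range A r was also 0.94, but there the 3 controls and the 5 treated libraries fall apart on the proliferation mean, so that value includes the difference between groups.

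Mycn and the mean of 3 Hedgehog readouts (Gli1, Ptch1 and Hhip) had an r of 0.65 and a rho of 0.50 over the 8 libraries of 6 days. These had exact permutation p-values of 0.084 and 0.216 and adjusted values of 0.345 and 0.562, and r was 0.50 without the 2 farthest libraries. In range A all 3 controls were above all 5 treated libraries in both measures, so no pooled value is given. Ptch1, among the readouts, is itself a conditional allele in these mice, and the part of Cre action in its counts was not tested. Myc and Mycl had an r of 0.82 and a rho of 0.81 in range A, with exact permutation p-values of 0.0091 and 0.0218 and adjusted values of 0.135 and 0.189. Without the 2 farthest libraries r was 0.84. At 6 days the values for Myc and Mycl were 0.79 and 0.90, with adjusted exact permutation p-values of 0.158 and 0.089. Among the 6-day libraries both genes had lower estimates in range B, by log2 differences of -1.09 and -1.18, neither called. The 6-day values may include that difference, and the range A values pool controls with treated libraries. Mxd1 and the mean of 11 keratinocyte differentiation genes had an r of -0.42 at 6 days (exact permutation p = 0.295, adjusted p = 0.575). Max and Mnt were the only pair of members with an adjusted exact permutation p under 0.05. At 6 days their r was 0.95 (adjusted p = 0.0471) and their rho 0.95 (adjusted p = 0.0445). Both genes stood higher in range B, so these values include the difference between ranges. In range A their r was 0.76 (adjusted exact permutation p = 0.185).

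**Figure D5:**
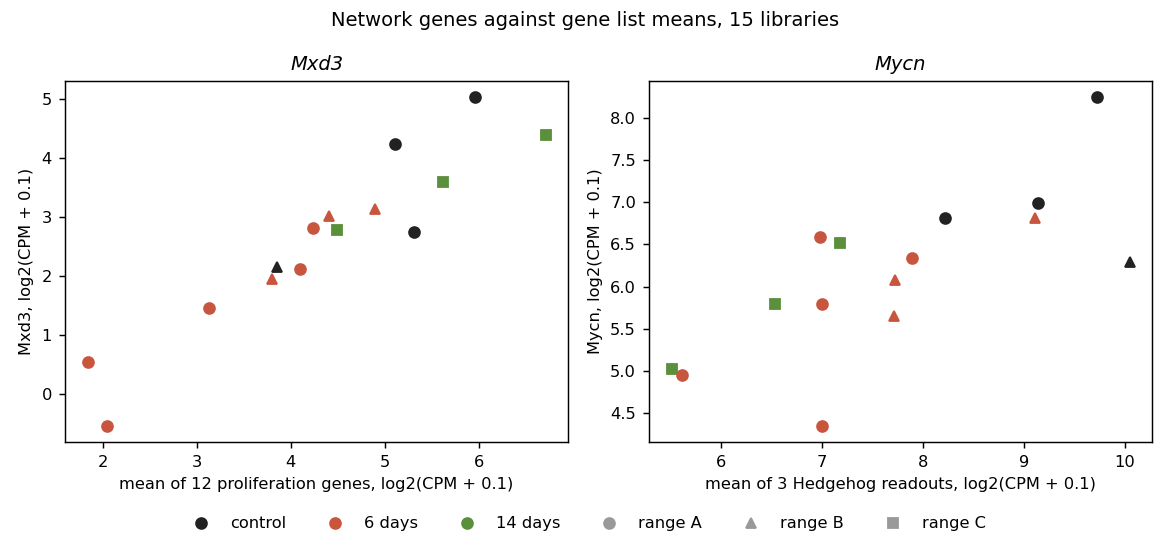
Left, log2(CPM + 0.1) of Mxd3 against the mean of 12 proliferation genes, and right, Mycn against the mean of 3 Hedgehog readouts, for 15 libraries with treatment as colour and identifier range as shape. The Mxd3 points lie along a rising line with an r of 0.95 over the 8 libraries of 6 days, and control replicate 2 lies highest for Mycn.

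The genes whose levels most resembled each member over the 15 libraries, by Pearson's r of log2 CPM among all tested genes, also differed between members. Mxd3 was closest to Top2a (r = 0.961) and Cep55 (0.960), genes of chromosome segregation and cell division. Mnt was closest to Zfp628 (0.993) and Cd151 (0.990), Max to Kdelr1 (0.973), and Mxd4 to Nfyc (0.958) and Ddx19a (0.949). For Mxd4 these values were 0.702 and 0.735 within range A. Myc was closest to the chemokine gene Cxcl16 (0.955) and to Leng9 (0.909). Mycl was closest to P4ha2 (0.933) and Inafm2 (0.912), and Mycn to Nrp1 (0.860) and Synpo (0.854). Mxi1 was closest to Id2 (0.922), an inhibitor of basic helix-loop-helix factors, and to Pcmtd2 (0.889), and Mxd1 to Zfp532 (0.861) and Dhx40 (0.858). The libraries share depth and identifier range, and these pairs were picked as the highest, so they carry no test.

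Of the genes that act around the network, none was called in any comparison by edgeR. Over all genes edgeR called 1.26% at 6 days, 6.60% at 14 days and 3.89% between 6 and 14 days. In lists of 4 to 13 genes, 0 called is near those shares. The linked MLX and MGA branch (Mlx, Mlxip, Mlxipl and Mga), which shares partners and sites with the network, had 0 of 4 genes called and a median log2 fold change of 0.12 at 6 days. Its most abundant genes were Mlxip, at 118.1 and 129.1 CPM in controls and at 6 days, and Mga, at 94.9 and 101.2 CPM. The 13 cofactors, among them the co-repressor Ncor1 and the deacetylase Hdac2, had 0 called and medians of 0.10 at 6 days and -0.11 at 14 days. Ncor1 had means of 325.3, 291.7 and 242.1 CPM in controls, at 6 days and at 14 days. The 8 genes of MYC protein turnover, among them the ubiquitin ligases Huwe1 and Stub1, had 0 called and medians of -0.13 and -0.12. MYC protein was not measured.

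Known targets of MYC were followed as 40 induced and 7 repressed genes, a list chosen by hand. Of the 40 induced targets, 1 fell at 6 days and none rose, where edgeR called 1.26% of all genes, and 29 of the 40 had negative estimates with a median log2 fold change of -0.08, beside 0.03 over all genes. That gene was Cdk4, which encodes a kinase of cell cycle entry. It fell from 450.0 ± 92.0 CPM (SD, n = 4) to 267.5 ± 32.6 (SD, n = 8), a log2 fold change of -0.75 (SE 0.15, edgeR adjusted p = 0.0262), with all 8 treated libraries below all 4 controls. The call was kept in 10 of 15 fits with a library left out and was lost without control replicate 2 or 3 or 6-day replicate 1, 2 or 8, and range B alone gave -0.21. At 14 days Cdk4 was again the only called gene of the 40, at 244.3 CPM and a log2 fold change of -0.88 (edgeR adjusted p = 0.0151), where 6.60% of genes were called, and it was lost without control replicate 3 or 14-day replicate 2 or 3. The median of the 40 was -0.05 at 14 days, and between 6 and 14 days none was called and the median was 0.08. Of the 7 repressed targets, Gadd45a, a stress response gene, fell from 55.3 to 9.54 CPM at 6 days, a log2 fold change of -2.53 (SE 0.34, edgeR adjusted p = 0.00472), and stayed called in 15 of 15 fits with a library left out. At 14 days Gadd45a (-2.88, edgeR adjusted p = 0.00467) and Cdkn2b (-1.97, edgeR adjusted p = 0.021), the gene of a CDK4 inhibitor, fell, and no repressed target rose in any comparison. Gadd45a again stayed called in 15 of 15 such fits and Cdkn2b in 11, losing it without control replicate 2 or any of the 3 libraries of 14 days.

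The proliferation genes that Mxd3 followed did not pass the test at 6 days, although all 12 had negative estimates and their median was -1.25, beside 0.03 over all genes. The median was -2.19 in range A alone and 0.59 in range B alone, the same split of signs as for Mxd3. At 14 days all 12 estimates against control were positive, with a median of 0.56 and none called, and the median was -0.07 without 14-day replicate 1. Between 6 and 14 days 4 of 12 rose, where 3.89% of all genes were called, and the median was 1.82. Among them were Ccnb1, from 2.25 to 18.4 CPM (log2 fold change 3.03, edgeR adjusted p = 0.0167), Aurkb (2.45, edgeR adjusted p = 0.0416) and Ccna2 (1.83, edgeR adjusted p = 0.0453). Ccnb1 stayed called in 13 of 15 fits with a library left out, and Aurkb and Ccna2 in 5 each. None of the 12 was called without 14-day replicate 1 or without 14-day replicate 3, where Mxd3 had estimates of 1.05 and 1.61. Of the 3 Hedgehog readouts that bear on Mycn, Hhip, a membrane antagonist of the pathway, fell at 6 days (-2.47, edgeR adjusted p = 0.0362). At 6 days 1.26% of all genes were called, and the Hhip call was kept in 9 of 15 fits with a library left out. At 14 days, where 6.60% of all genes were called, Hhip and Ptch1 were called lower and Mycn was not. Those calls were kept in 8 and 4 of 15 such fits. Ptch1 is also a conditional allele in these mice, and the part of Cre action in its counts was not tested. Of 11 differentiation genes, Krt10 was called higher at 14 days against control (2.55, edgeR adjusted p = 0.0452), a call kept in 4 of 15 such fits. With 6.60% of all genes called in that comparison, 1 of 11 is near the background. Mxd1 had -0.13 there.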

How the data were processed

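The deposited files give, per the file headers, unique read counts per gene and RPKM made by the authors from those counts. Reads were aligned with GSNAP to GRCm38, per the submitters' processing notes. Versions, annotation and use of strand are not stated there. Entrez identifiers were matched to RefSeq symbols (31049 of 36528). The test was edgeR 4.0.16 (R 4.3.3) on counts as deposited, with TMM factors, filterByExpr on group, in 1 quasi-likelihood fit of 15 libraries with no covariate, 12 residual degrees of freedom, Benjamini-Hochberg adjustment over 18751 genes and a threshold of 0.05. CPM values use TMM factors, with the SD over libraries after ±. A floor of 3 counts is at most 0.110 CPM, for counting error only. The members, lists and rules were chosen with earlier results of these data known. Named genes were the members, the 2 genes most like each, and from each list up to 3 called genes by smallest p or, if none was called, its 2 most abundant. Some genes are not reported here. Alternatives were DESeq2 1.42.0, limma-voom with sample weights from limma 3.58.1, upper-quartile or RLE factors, 2 other filters, fits of 2 groups, identifier range and each library left out. The comparison between identifier ranges was added after the data were seen. Groups came from the treatment label, and replicates were numbered in accession order. No pair of libraries matched within sampling noise. On data simulated for 18751 genes, 6 days against control recovered 20 of 100 genes changed 2-fold and 61 of 100 changed 4-fold, with 3 false of 84 calls. For 14 days it recovered 3 and 31, with 3 false of 37. Python 3.11.15 did the rest, with matplotlib 3.10.9, scipy 1.17.1, pandas 2.3.3 and numpy 2.4.6.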

Additional observations from a re-analysis of the deposited data

Results flagged for a closer look

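Among 18 groups of 4 to 8 libraries tested for a library far from its group, 2 had one, where chance gives about 1 in 20. Mxd4 was 58.2 CPM in control replicate 4, and the nearest other control had 30.1 CPM. Mxi1 was 151.0 CPM in the same library, and the nearest other control had 112.0 CPM. Control replicate 4 is the single control of identifier range B, in which Mxd4 was higher in all 4 libraries. Mxi1 was not higher in the 3 libraries of 6 days in that range, which stood at 116.2, 116.0 and 88.9 CPM.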

How the results depend on the processing

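The count of called members was 0 in each of the 3 treatment comparisons and stayed 0 under all alternatives run, except limma-voom with sample weights, which called 2 members at 6 days, 1 at 14 days and 2 between 6 and 14 days. The cause of that difference was not tested. No member's sign turned under an alternative that called it. Between identifier ranges the alternatives called 3 to 4 members. The number of genes called over the whole table was 236 at 6 days and ran from 197 to 866 under other settings and from 69 to 308 with a library left out. At 14 days it was 1238, with 374 to 4205 and 376 to 1438. Between 6 and 14 days it was 730, with 460 to 4693 and 3 to 1138. The induced targets called went from 1 to between 0 and 2 at 6 days, from 1 to between 0 and 9 at 14 days, and from 0 to 9 between them. These highest counts were reached with limma-voom with sample weights, which called 4.41%, 22.4% and 25.0% of all genes in the 3 comparisons. Among 40 targets such counts are near the background. The repressed targets called were 1 to 2 at 6 days and 1 to 3 at 14 days. The proliferation genes called went from 0 to as many as 6 at 6 days and from 4 to between 2 and 12 from 6 to 14 days, or between 0 and 5 with a library left out. The counts of 6 and 12 were also reached with limma-voom with sample weights. With TMM-scaled levels per length in place of RPKM the order of the members changed only for Myc and Mxi1 in controls, but those levels use the same deposited lengths. With annotated transcript lengths, an alternative added after the data were seen, Mxd4 ranked 8th, 7th and 8th in place of second in all 3 groups, and other members changed places too. No paired analysis was possible because the labels carry no replicate numbers. With 3 libraries at 14 days and a common coefficient of variation of 0.579, recovery of 2-fold changes was low on simulated data, so an uncalled member is not shown to be unchanged.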
